A study of Mus musculus with 20 samples.

Results

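NIH3T3 cells kept at 1% CO2 for 4 h were compared with NIH3T3 cells given 18 mM NaOH for 4 h, both of which make the medium alkaline. The comparison takes in the 4 libraries of each condition, 8 of the 20 libraries of the series, chosen by their labels. It covers the 9726 genes whose normalized count averaged at least 5, of the 11075 genes in the table. The 4 libraries of cells at 5% CO2 and 0 h were used to tell which of the treatments had moved a gene. NIH3T3 is an established fibroblast line from mouse embryos, so every library comes from a single line. All cells had grown until day 4 after plating in a medium with 18 mM sodium bicarbonate. The 1% CO2 cells were then moved to a chamber with that gas level, and the NaOH cells stayed at 5% CO2 with 18 mM NaOH in the medium. The 0 h cells stayed at 5% CO2 and received nothing. No untreated library of 4 h was analysed here, so a change against 0 h also holds whatever time alone did.

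Carbon dioxide dissolves to carbonic acid, and bicarbonate in the medium buffers it, so that lowering the gas raises the pH. A strong base raises the pH while the gas stays in place. The comparison therefore asks which transcripts told the removal of CO2 from the addition of base. Some of the gene lists below follow known routes of transcriptional control, and which of these routes act here was not tested. Sterol synthesis is driven by SREBP2, a membrane-bound factor that is cut and sent to the nucleus when membranes of the endoplasmic reticulum run short of cholesterol. Cytoskeletal, matrix and early-response genes are driven by serum response factor, SMAD, TEAD and AP-1 factors.

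Of the 9726 genes, 321 (3.3%) were higher at 1% CO2 and 309 (3.18%) were lower than with NaOH. A gene was called when its adjusted p (Benjamini-Hochberg) was at most 0.05 in edgeR's quasi-likelihood test together with a log2 fold change (log2FC) of at least 1 in size, which is a fold of 2. Called genes differed by a median of 1.30 on the log2 scale. Among them, 18 were higher with a log2FC of 2 or more and 50 were lower with a log2FC of -2 or less. In 553 of the 630 called genes the 4 values of one treatment did not overlap the 4 of the other. That count follows largely from the thresholds and is no separate support. The same count over all 9726 genes is not given here. On adjusted p alone, 1589 genes (16.3%) were higher and 1866 (19.2%) lower. Counts of list members below are to be read beside these shares of all genes, by the same measure. The share of higher genes among the calls was 51% with TMM scaling and 61.7% with library size alone, where 413 genes were higher and 256 lower. That scaling moved the median log2FC of all genes from 0.00 to 0.07.

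Most of the difference lay on the NaOH side. Against 0 h, 395 genes (4.06%) rose and 387 (3.98%) fell at 1% CO2, while 739 (7.6%) rose and 774 (7.96%) fell with NaOH. Of the 630 genes that differed at 4 h, 500 had moved further from 0 h with NaOH and 130 further at 1% CO2. Among the 321 genes higher at 1% CO2, 188 had fallen with NaOH only, 32 had risen at 1% CO2 only, 17 had fallen with both and 5 had risen with both. For 78 of them neither change against 0 h passed the thresholds. Among the 309 lower genes, 166 had risen with NaOH only, 35 had fallen at 1% CO2 only and 30 had risen with both. For 71 of these neither change against 0 h passed, and 6 had moved in opposite directions. The count of 6 was 3 without 0 h replicate 1, 3 without 0 h replicate 4, 2 without 1% CO2 replicate 1 and 3 without 1% CO2 replicate 3. Both changes against 0 h share the same 4 control libraries.

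**Figure D1:**
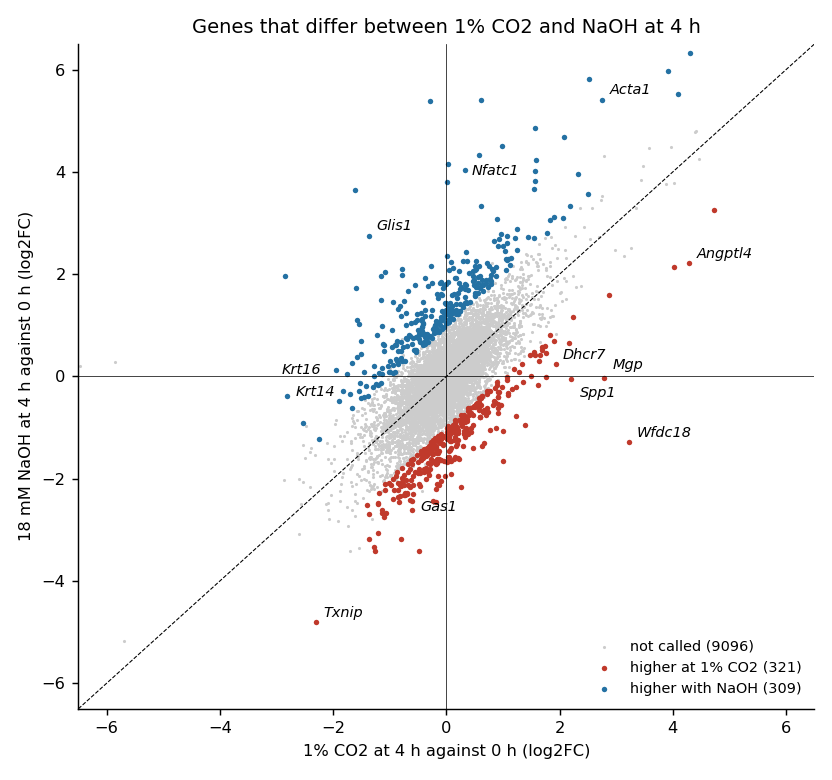
Each point is 1 of the 9726 genes tested, with its log2FC against 0 h at 1% CO2 on the horizontal axis and with 18 mM NaOH on the vertical axis. The 321 genes higher at 1% CO2 lie below the dashed line of equal change and the 309 lower genes lie above it, and Mgp, Spp1, Dhcr7, Krt14 and Krt16 lie near the horizontal axis, where NaOH changed little.

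Total counts were 2194246 to 3686677 in the 1% CO2 libraries, 3250421 to 4260274 in the NaOH libraries and 2815294 to 5640523 in the 0 h libraries. Of the 12 fibroblast markers looked for, 11 were in the table and none was called. Their summed normalized count was 149388 to 161940 at 1% CO2, 140268 to 143833 with NaOH and 127724 to 143267 at 0 h. Of 8 epithelial markers 3 were in the table, with a sum of 218 to 276 at 1% CO2, 626 to 763 with NaOH and 772 to 894 at 0 h, nearly all of it Krt14. Of 6 skeletal muscle markers Acta1 and Des were in the table, with a sum of 49.5 to 61.2, 266 to 327 and 22.4 to 35.7. Cd68 and Lyz2 were the 2 of 9 immune markers in the table, at a sum of 128 to 191, 125 to 143 and 126 to 178. In bulk RNA, fewer cells with a transcript and less of it in each cell cannot be told apart. The part of other cell types in Krt14 and Acta1 was not tested. The reference genes Tbp, Hprt and Rplp0 were not called, with log2FC values of 0.27, -0.12 and 0.05. Rplp0 ranged from 6816 to 14355 normalized counts within the 1% CO2 libraries.

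The matrix and lipid genes at the head of the higher list had risen when CO2 was lowered to 1%. Mgp encodes matrix Gla protein, a secreted inhibitor of calcification (GRCm38 chromosome 6, 136872435 to 136875823). It had normalized counts of 625, 486, 525 and 637 in the 1% CO2 libraries and 66.1, 79.0, 91.3 and 87.6 with NaOH. The 0 h libraries held 79.2 to 83.6, so the NaOH libraries spread around the 0 h level and the 1% CO2 libraries stood clear of both. The log2FC was 2.81 with a standard error of 0.12 (adjusted p = 2.4e-20). Spp1, which encodes the secreted matrix protein osteopontin (chromosome 5, 104435111 to 104441053), had 1961, 1602, 1819 and 1735 at 1% CO2. It had 356, 336, 380 and 430 with NaOH and 352 to 408 at 0 h, a log2FC of 2.25 ± 0.10 (SE) between the treatments. Angptl4, a secreted inhibitor of lipoprotein lipase, had 203, 235, 275 and 275 at 1% CO2 and 64.4, 58.4, 59.2 and 49.6 with NaOH. Its 0 h libraries held 5.57 to 18.3. It therefore rose with both treatments, by 4.29 and 2.21 on the log2 scale, and further at 1% CO2 (log2FC 2.07, adjusted p = 1.4e-13).

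Other genes with lower counts rose against 0 h at 1% CO2 and were not called with NaOH, and those of this paragraph were chosen after their values were seen. Wfdc18, which encodes a small secreted protein with a whey acidic protein domain, had 38.4, 55.8, 35.9 and 39.5 normalized counts at 1% CO2. Its NaOH libraries held 1.69, 1.15, 2.91 and 1.06 and its 0 h libraries 3.20 to 5.57. The 1% CO2 libraries were above all others (log2FC 4.52 ± 0.38 SE against NaOH, adjusted p = 1e-11). With NaOH it lay below every 0 h library (log2FC -1.29, adjusted p = 0.059, edgeR), and without NaOH replicate 3 that fall passed. Kcnk2, a mechanically and pH-gated potassium channel, had 30.1, 25.6, 32.2 and 30.0 against 5.08, 8.02, 10.7 and 5.28 with NaOH, and 10.0 to 14.4 at 0 h. Its change with NaOH was -0.78 (adjusted p = 0.042, edgeR), and without NaOH replicate 3 it passed as a fall, at -1.04. Il16, Il34 and Synpo were not called with NaOH against 0 h. Il16, which encodes a cytokine precursor, had 172 to 197 at 1% CO2, 53.8 to 74.6 with NaOH and 59.1 to 78.9 at 0 h (log2FC 1.49). Il34, a ligand of the CSF1 receptor, had 77.9 to 99.6, 30.1 to 44.3 and 19.5 to 33.4 (log2FC 1.30). Synpo, the actin-binding protein synaptopodin, had 220 to 250, 70.3 to 96.1 and 95.6 to 117 (log2FC 1.46), and its change of -0.36 with NaOH passed on adjusted p alone (0.0073, edgeR).

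Krt14 and Krt16 fell against 0 h at 1% CO2 and were not called with NaOH. Krt14 (chromosome 11, 100203162 to 100207510), a filament protein of basal epithelia, had 213, 269, 228 and 235 at 1% CO2 against 713, 758, 624 and 664 with NaOH. Its 0 h libraries held 760 to 888, so it fell at 1% CO2 by 1.83 on the log2 scale, while the change with NaOH was -0.28, with all 4 NaOH values below those of 0 h. Krt16, in the same keratin cluster of chromosome 11, had 14.6, 20.9, 21.1 and 12.6 at 1% CO2 and 68.6, 85.9, 75.7 and 64.4 with NaOH, with 60.6 to 76.0 at 0 h. Krt10, the other keratin gene tested, had a log2FC of 0.50 and was not called. Krt16 and the next 3 genes were picked with their values already seen. Atp2b4, a calcium pump of the plasma membrane, had 23.7 to 38.4 at 1% CO2, 121 to 152 with NaOH and 77.3 to 92.5 at 0 h (log2FC -2.20). Foxp1, a forkhead transcription factor, had 21.0 to 28.4, 56.3 to 80.2 and 46.8 to 54.4 (log2FC -1.61). Edn1, the vasoconstrictor peptide endothelin, had 1.58 to 7.43, 10.3 to 18.6 and 10.0 to 15 (log2FC -1.79). In each of these genes the 4 values at 1% CO2 lay below all 8 others.

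**Figure D2:**
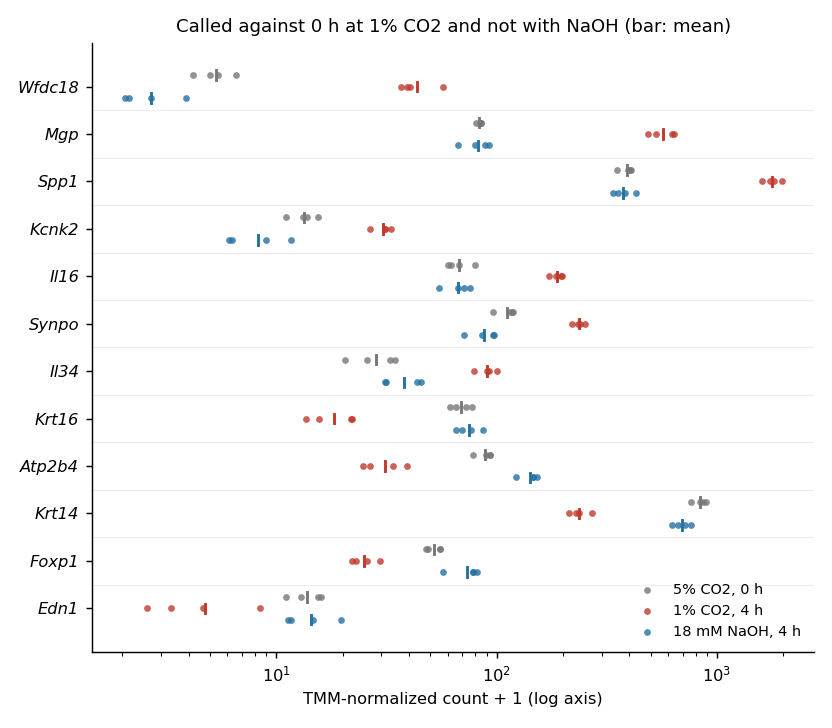
Normalized counts plus 1 on a log axis for 12 genes called against 0 h at 1% CO2 and not with NaOH, with 1 point a library and a bar at the mean of the 4 libraries of a group. In the upper 7 genes the red 1% CO2 points lie to the right of both other groups, as with Mgp at 486 to 637 against 66.1 to 91.3, and in the lower 5 to the left, as with Krt14 at 213 to 269 against 624 to 758.

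In a larger set of genes higher at 1% CO2, the NaOH value had fallen. Gas1, a membrane protein of growth-arrested fibroblasts, had 607, 620, 666 and 643 at 1% CO2, 191, 177, 234 and 245 with NaOH and 993 to 1140 at 0 h. Its fall of 2.32 with NaOH passed the thresholds and its change of -0.74 at 1% CO2 did not. Cpt2, which brings long-chain fatty acids into the mitochondrial matrix, had 274, 300, 303 and 333 at 1% CO2 and 110, 64.1, 118 and 112 with NaOH. At 0 h it had 488 to 523. Bbc3, a BH3-only inducer of apoptosis, had 96.6 to 130 at 1% CO2, 33.0 to 42.2 with NaOH and 175 to 191 at 0 h. The immediate early factor Egr1 fell by 2.13 with NaOH, against a change of -0.60 at 1% CO2. In these genes the values of the 3 groups did not overlap, with 1% CO2 in the middle. The gap between the treatments was required by the rule that named the genes.

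Txnip had the largest fall of this kind. It encodes thioredoxin-interacting protein, an alpha-arrestin that limits glucose uptake. It had 893 to 960 normalized counts at 0 h, 141, 209, 207 and 199 at 1% CO2 and 33.0, 26.3, 30.1 and 41.2 with NaOH. Both treatments lowered it, by 2.29 and 4.81 on the log2 scale, and NaOH did so further (log2FC 2.51 ± 0.15 SE). Of the 5 alpha-arrestin genes tested, Arrdc3 was also higher at 1% CO2, with 16.1 to 30.2 against 2.29 to 8.47, and the other 3 were not called. The list's median log2FC was 0.25, beside 0.00 over all genes.

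Further genes of the same side have roles in mitochondria, signalling and transport of vesicles. Rars2, the mitochondrial arginyl-tRNA synthetase, had 56.9 to 79.1 at 1% CO2 and 16.0 to 26.4 with NaOH, while 0 h held 62.4 to 77.3. Ldb2, a cofactor of LIM-domain proteins, had 57.6 to 77.9, 13.6 to 23.3 and 144 to 168. Ehbp1, which links endocytic vesicles to actin, had 60.3 to 118, 11.5 to 25.3 and 111 to 142. The glycosyltransferase-like gene B3gntl1 had 53.9 to 66.3, 16.9 to 27.4 and 68.8 to 83.6. Tbccd1, a centrosomal protein with a tubulin-cofactor domain, had 73.1 to 86.0, 21.1 to 34.4 and 55.0 to 76.0. The log2FC values of these 5 ran from 1.51 in B3gntl1 to 2.00 in Ehbp1. That the treatments did not overlap was required by the rule that named them. Rasa3, a GTPase-activating protein for Ras and Rap, differed from them, since it lay above 0 h at 1% CO2 and below it with NaOH. It had 528 to 751 at 1% CO2, 188 to 223 with NaOH and 326 to 378 at 0 h. Neither change of Rasa3 against 0 h passed the fold threshold, and without 1% CO2 replicate 4 its rise at 1% CO2 did.

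Receptors and transcription factors were among the genes furthest below NaOH. Gpr39, a zinc-sensing receptor coupled to G proteins, had 3.65, 1.16, 2.48 and 4.74 normalized counts at 1% CO2 and 59.3, 53.8, 42.7 and 58.1 with NaOH, with 1.11 to 4.00 at 0 h. Nfatc1, a transcription factor activated through calcineurin, had 46.6, 37.2, 50.8 and 47.4 against 656, 646, 549 and 545, with 27.9 to 41.4 at 0 h. Neither gene was called against 0 h at 1% CO2. Glis1, a zinc finger transcription factor, moved in opposite directions. It had 27.2 to 41.4 at 0 h, 9.14, 19.8, 16.1 and 12.6 at 1% CO2 and 260, 285, 219 and 230 with NaOH. It thus fell by 1.37 and rose by 2.75 on the log2 scale (log2FC -4.12 ± 0.18 SE between the treatments). The adhesion receptor gene Adgrg1 had 23.9 to 36.8 at 0 h, 11 to 17.3 at 1% CO2 and 117 to 133 with NaOH. Its fall at 1% CO2 did not pass without 0 h replicate 3 or without 1% CO2 replicate 1.

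Other genes of this end encode proteins of junctions, secretion and signalling by small GTPases. Creb3l1, a transcription factor held in the membrane of the endoplasmic reticulum, had 98.8 to 140 at 1% CO2, 620 to 713 with NaOH and 222 to 270 at 0 h (log2FC -2.40). Pkp2, a desmosome protein, had 12.6 to 18.6, 57.0 to 84.7 and 11.2 to 16.7 (log2FC -2.34). Arhgef39, an exchange factor for small GTPases, had 9.48 to 14.6, 75 to 88.3 and 4.00 to 10.6 (log2FC -2.71). Serpina3h, a serine protease inhibitor, had 4.74 to 11.6, 44.7 to 71.2 and 1.11 to 3.98 (log2FC -2.65). Its close paralogs of the Serpina3 cluster may share tags with it. For Mcam, a cell adhesion molecule chosen after its values were seen, 3 of the 4 libraries at 1% CO2 held 0 and the other 1.16. Its NaOH libraries held 13.6, 29.8, 18.4 and 25.3 and its 0 h libraries 0 to 1.11.

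**Figure D3:**
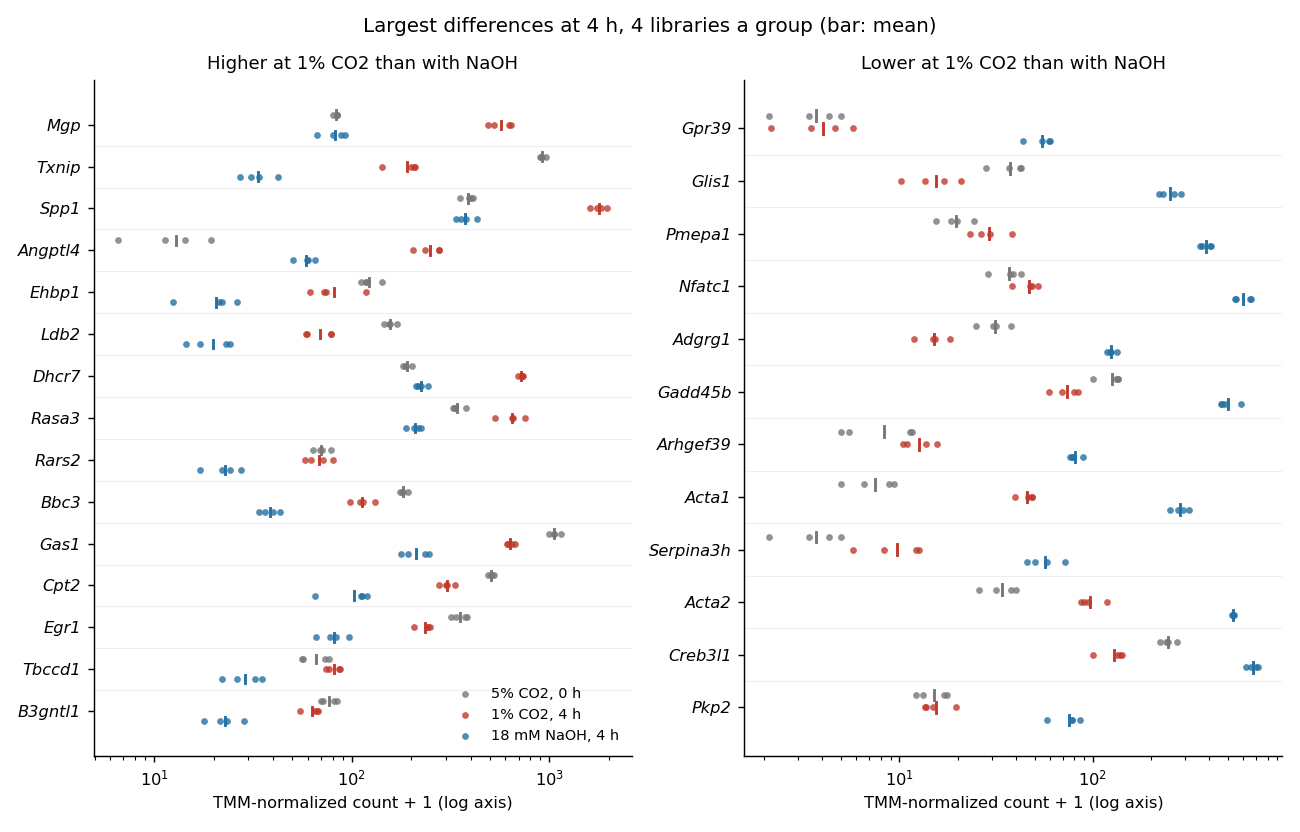
Normalized counts plus 1 on a log axis for the 15 genes with the largest differences among those higher and 12 of the 15 among those lower, with 1 point a library and a bar at the mean of 4. On the left the blue NaOH points lie to the left of the red 1% CO2 points in every gene, with grey 0 h points often to the right of both as in Txnip, and on the right the blue points stand apart, as in Nfatc1 at 545 to 656 against 37.2 to 50.8. The rule that chose these genes required that the treatments not overlap.

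Several targets of TGF-beta signalling were lower at 1% CO2. Pmepa1, a feedback inhibitor of that pathway, had 28.3, 22.1, 37.2 and 25.3 at 1% CO2 and 408, 401, 358 and 365 with NaOH, with 14.4 to 23.4 at 0 h (log2FC -3.75 ± 0.14 SE). Smad7, an inhibitory SMAD, had 90.1 to 112 at 1% CO2, 244 to 312 with NaOH and 63.2 to 86.9 at 0 h. Of the 13 list members tested, 0 were higher and 5 lower, Skil and Smad6 among them, with a median log2FC of -0.71 beside 0.00 over all genes. On adjusted p alone 1 was higher and 9 lower, beside 16.3% and 19.2% of all genes. Of 6 targets of BMP signalling and ID proteins, none was called, and on adjusted p alone 2 were higher and 1 lower.

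Actin genes driven by serum response factor did not all move together. Acta1, the actin of skeletal muscle, had 47.5, 45.3, 38.4 and 47.4 at 1% CO2 and 312, 276, 291 and 248 with NaOH, with 3.98 to 8.36 at 0 h. Acta2, the actin of smooth muscle and myofibroblasts, had 88.6, 117, 92.9 and 85.3 against 530, 521, 533 and 531, with 24.8 to 39.0 at 0 h. Both genes rose with both treatments, and further with NaOH, with a log2FC of -2.65 ± 0.13 (SE) between the treatments for Acta1 and -2.46 ± 0.11 for Acta2. Tpm1, a tropomyosin, had 1082 to 1247 at 1% CO2 and 2491 to 3047 with NaOH. Srf, the factor itself, had 121 to 179 at 1% CO2, 363 to 477 with NaOH and 119 to 130 at 0 h, and rose with NaOH only. In the list of 19 actin and serum response genes, 3 were lower and 1 higher, at a median log2FC of -0.35, with 3 higher and 10 lower on adjusted p alone. The exception was Filip1l, a filamin-interacting protein, with 95.4 to 111 at 1% CO2, 30.9 to 45.4 with NaOH and 89.6 to 106 at 0 h. The cytoplasmic actins Actb and Actg1 differed by -0.05 and 0.05.

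Promoter stretches of Acta1 and Filip1l are shown because these genes of the list moved in opposite directions. RefSeq windows of 300 bases (250 before to 50 after a transcription start, GRCm38.p6) were searched on both strands for the CArG box, the element that binds serum response factor. It was found in 8 of 18 windows of the list's matched genes (44.4%), in 1.33% of the windows of all genes tested and in 1.63% of all RefSeq windows. The stretches are written 5′ to 3′ on the strand of the gene, with the CArG box in capitals. It began 73 bases before the start in Acta1, which was lower at 1% CO2, and 62 bases before it in Filip1l, which was higher. Filip1l has 2 windows, of which 1 holds the box, and which start these cells use was not tested.
Acta1 (chr8:123894794-123894893, minus strand): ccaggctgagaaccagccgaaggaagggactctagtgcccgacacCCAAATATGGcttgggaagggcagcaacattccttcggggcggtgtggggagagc
Filip1l (chr16:57549135-57549234, plus strand): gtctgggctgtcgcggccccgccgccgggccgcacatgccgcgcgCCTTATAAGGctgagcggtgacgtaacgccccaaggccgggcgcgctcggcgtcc

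The calls among focal adhesion genes and the YAP and TEAD list were also in the lower direction. Of 15 focal adhesion and integrin genes, 0 were higher and 2 lower, at a median log2FC of -0.22. These were Bcar1, a docking protein of focal adhesions, with 169 to 210 at 1% CO2 and 415 to 496 with NaOH, and Itga5, a fibronectin receptor subunit, with 117 to 162 and 284 to 346. The YAP and TEAD list holds targets and also members of the pathway itself, Yap1, Tead1, Lats2 and Wwtr1 among them. Of its 16 genes tested, 0 were higher and 4 lower, at a median of -0.36. Only 2 were lower without 1% CO2 replicate 3, without NaOH replicate 4 or with library size alone. Ctgf was among those lost, at -0.96, -0.99 and -0.97. Wwtr1, the gene of the coactivator TAZ, had 177 to 224 at 1% CO2, 403 to 467 with NaOH and 123 to 166 at 0 h. Crim1, a membrane protein that binds growth factors, had 50.6 to 76.7, 133 to 168 and 47.9 to 81.9.

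Matrix genes gave calls in both directions. Thbs1, the matricellular protein thrombospondin, had 273, 284, 281 and 319 at 1% CO2 and 893, 779, 986 and 931 with NaOH, with 141 to 165 at 0 h. Plaur, the urokinase receptor, had 292 to 339, 666 to 796 and 123 to 136, and rose with both treatments, further with NaOH. Adamts1, a secreted metalloprotease, went the other way, with 198 to 260 at 1% CO2, 81.3 to 102 with NaOH and 129 to 163 at 0 h. Of 31 matrix genes tested, 2 were higher (Mgp and Adamts1) and 4 lower, at a median log2FC of -0.05. The fibrillar collagens Col1a1 and Col1a2 each differed by 0.19.

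Enzymes of cholesterol synthesis were higher at 1% CO2 than with NaOH at several steps. Of 22 genes tested in the mevalonate and sterol parts of the pathway, 21 had a log2FC above 0 and none was called lower. In the mevalonate part 4 of 9 were higher (median log2FC 0.70), and in the squalene and sterol part 3 of 13 (median 0.64), beside 3.3% of all genes. On adjusted p alone, 8 of 9 and 11 of 13 were higher. Against 0 h, 8 of 9 and 10 of 13 had risen past both thresholds at 1% CO2 and 2 of 9 and 2 of 13 with NaOH. The median log2FC against 0 h was 1.44 and 1.29 at 1% CO2 and 0.52 and 0.43 with NaOH. The lists thus leaned upward with NaOH too, mostly by less than the fold threshold. Dhcr7, the last enzyme of the Kandutsch-Russell branch (chromosome 7, 143823167 to 143848410), had 729, 692, 733 and 728 at 1% CO2. It had 211, 216, 243 and 224 with NaOH and 180 to 200 at 0 h, so that NaOH moved it by 0.24 and 1% CO2 by 1.93 on the log2 scale. The log2FC between the treatments was 1.69 ± 0.09 (SE), or 3.22-fold.

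The other called genes lay along the pathway rather than at 1 step. Mvk, mevalonate kinase, had 1125, 1052, 1377 and 1286 at 1% CO2 and 409, 490, 408 and 496 with NaOH, with 541 to 584 at 0 h. Mvd, mevalonate diphosphate decarboxylase, had 836, 576, 816 and 665 against 317, 334, 284 and 355. Acat2, the cytosolic thiolase at the entry, had 733, 683, 842 and 751 against 373, 260, 411 and 342. Nsdhl, which acts in removing the methyl groups at the sterol ring, had 475, 517, 531 and 547 against 246, 190, 266 and 253. The gene listed under its Riken symbol 0610007P14Rik had 1380, 1527, 1453 and 1496 against 565, 537, 599 and 607. In each of these the treatments did not overlap, and the log2FC ran from 1.11 in Acat2 and Nsdhl to 1.43 in Mvk. Idi1, isopentenyl diphosphate isomerase, was low, at 9.48 to 15.5 and 3.44 to 11.6 (log2FC 1.02). Its call was lost without 1% CO2 replicate 1 (0.90), NaOH replicate 1 (0.90), NaOH replicate 2 (0.84) or NaOH replicate 4 (0.94).

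Other enzymes of the pathway, at controlled steps and elsewhere, differed less between the treatments. Hmgcs1, the HMG-CoA synthase, had 2020 to 2460 normalized counts at 1% CO2 and 1690 to 2040 with NaOH (log2FC 0.26) and had 777 to 873 at 0 h. Sqle, squalene epoxidase, had 1492 to 1822 and 1189 to 1547 (log2FC 0.31) and 649 to 704 at 0 h, where its rise passed at 1% CO2 and reached 0.97 with NaOH. Cyp51 and Sc5d also rose with both treatments, with log2FC values of 0.35 and 0.51 between them. Lbr and Tm7sf2 differed by 0.27 and 0.33. Fdps, Lss, Ebp, Msmo1, Pmvk and Hsd17b7 lay between 0.61 and 0.85. Hsd17b7 was called without NaOH replicate 3, at 1.02. Ggps1, which leads to protein prenylation and not to sterols, was the one value below 0, at -0.30, with 6.32 to 12.8 and 6.87 to 15.8.

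**Figure D4:**
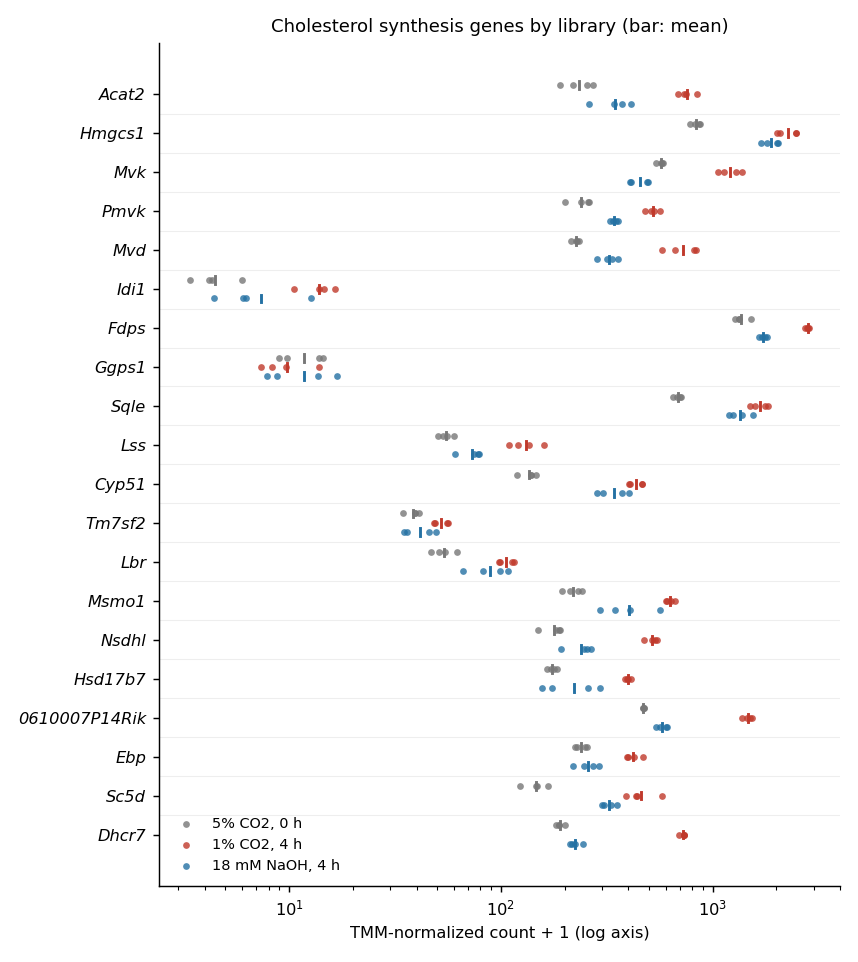
Normalized counts plus 1 on a log axis for 20 cholesterol synthesis genes in pathway order from top to bottom, with 1 point a library and a bar at the mean of 4. The red 1% CO2 points lie to the right of the blue NaOH points without overlap in Dhcr7, Mvk and Mvd, while in Hmgcs1 and Sqle both treatments lie well to the right of the grey 0 h points.

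Genes that sense sterol or carry it in did not separate the treatments. Of 16 genes of the SREBP pathway and sterol uptake none was called, at a median log2FC of 0.11. Srebf2 itself had 420 to 457 at 1% CO2 and 436 to 459 with NaOH, both above the 255 to 269 of 0 h. Insig1, which holds SREBP in the endoplasmic reticulum, had 632 to 769 and 521 to 665, against 264 to 314 at 0 h. Scap, the escort of SREBP, had 438 to 455 and 380 to 455. None of the 5 LXR targets tested was called.

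Promoter stretches are shown for 4 cholesterol synthesis genes that rose at 1% CO2 and hold a match to a motif searched. Genes without a match could not be shown, and other genes of the lists rose too. Hmgcs1 also rose with NaOH and was not called between the treatments. Of the 22 genes of the pathway, 17 matched a RefSeq window, with 20 windows in all. The box CCAAT, bound by NF-Y, was in 16 of the 20 windows (80%), in 37.8% of the windows of genes tested and in 37.4% of all. For the genes of the pathway called higher between the treatments, it was in 5 of 8 windows (62.5%). The SP box GGGCGG was also in 16 of the 20 windows, beside 65% of the windows of genes tested. The letters TCACNCCAC, a form of the sterol regulatory element, were in 1 of the 20 windows, that of Hmgcs1, and in 1.24% of all. They were in 0 of the 8 windows of the genes called higher. Other spellings of that element were not searched. Dhcr7 has 3 windows, of which 1 holds CCAAT, and which start these cells use was not tested. Stretches are written 5′ to 3′ on the strand of the gene (GRCm38.p6), and the capitals mark TCACCCCAC in Hmgcs1 and CCAAT or its reverse complement ATTGG in all 4.
Hmgcs1 (chr13:119690169-119690267, plus strand): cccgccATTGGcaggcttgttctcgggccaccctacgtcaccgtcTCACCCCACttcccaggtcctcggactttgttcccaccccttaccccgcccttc
Mvk (chr5:114444051-114444145, plus strand): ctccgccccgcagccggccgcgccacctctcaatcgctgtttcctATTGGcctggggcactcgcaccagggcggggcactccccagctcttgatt
Nsdhl (chrX:72918367-72918461, plus strand): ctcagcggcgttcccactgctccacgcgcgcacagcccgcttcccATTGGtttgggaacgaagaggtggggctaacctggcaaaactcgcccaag
Dhcr7 (chr7:143830084-143830178, plus strand): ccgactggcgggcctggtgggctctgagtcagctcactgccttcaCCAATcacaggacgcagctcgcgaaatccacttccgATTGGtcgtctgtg

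Fatty acid genes leaned the same way with fewer calls. Elovl6, an elongase of saturated chains, had 117, 101, 155 and 136 at 1% CO2, 51.7, 33.2, 56.3 and 34.8 with NaOH and 15.6 to 35.1 at 0 h. Acss2, the cytosolic acetyl-CoA synthetase, had 81.4 to 88.5, 32.1 to 44.3 and 59.8 to 74.7. These were the 2 genes higher among 18 tested, with 0 lower and a median log2FC of 0.43, and on adjusted p alone 9 were higher and 1 lower. Acly, which makes cytosolic acetyl-CoA from citrate, differed by 0.85, Scd1 by 0.62 and Fasn by 0.11.

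Hypoxia-type genes did not move as a block. Plod2, a collagen lysyl hydroxylase, had 238 to 258 at 1% CO2, 677 to 714 with NaOH and 175 to 183 at 0 h. Vegfa, the endothelial growth factor, had 357 to 450, 939 to 1002 and 379 to 421, and so rose with NaOH only. Of 19 HIF-1 targets outside glycolysis, 1 was higher (Angptl4) and 4 lower, at a median log2FC of -0.15. Of 17 glycolysis genes none was called, at a median of -0.18. Slc2a1, the glucose transporter of fibroblasts, had 2289 to 2708 at 1% CO2, 3907 to 4050 with NaOH and 966 to 1035 at 0 h, a log2FC of -0.65. Ldha had 3648 to 4028 and 3996 to 4780.

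Immediate early genes moved in both directions. Egr1 was higher at 1% CO2, while the AP-1 gene Fosb was lower, with 1.83, 3.49, 1.24 and 0 against 28.0, 25.2, 9.71 and 11.6 with NaOH. The 0 h libraries held 2.39 to 8.0 of Fosb. It was the only one called of 11 AP-1 genes, which had a median log2FC of -0.39 with 1 higher, Jun at 0.48, and 5 lower on adjusted p alone. Of 18 other immediate early genes 2 were higher, Egr1 and Ier5, and 5 lower, at a median of -0.55. Egr2 and Egr3, of the same family as Egr1, had log2FC values of -0.59 and -0.42 and were not called. Without 1% CO2 replicate 3 the lower ones were 3. Ier5 had 15.8 to 20.9 at 1% CO2, 4.24 to 11.6 with NaOH and 5.58 to 8.91 at 0 h. The nuclear receptors Nr4a1, Nr4a2 and Nr4a3 were lower, with log2FC values of -1.28, -2.43 and -2.05, from means of 28.8, 2.05 and 1.68 at 1% CO2.

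Feedback genes of the ERK pathway rose with both treatments and gave calls in both directions between them. Etv5, an ETS factor, had 96.8, 106, 103 and 67.9 at 1% CO2, 29.7, 29.8, 33.0 and 43.3 with NaOH and 2.23 to 4.46 at 0 h. The phosphatase gene Dusp4 had 9.91 to 17.4, 25.2 to 35.9 and 1.67 to 6.68. Of the 12 genes tested 2 were higher, Etv5 and Spry4, and 2 lower, Dusp4 and Dusp1. Dusp1 was not called without NaOH replicate 2 or with library size alone (-0.99 in both). Against 0 h, 10 of the 12 had risen at 1% CO2 and 9 with NaOH. Hbegf, a ligand of the EGF receptor, was lower, with 77.4 to 96.8 at 1% CO2, 266 to 286 with NaOH and 13.4 to 18.9 at 0 h. It was 1 of 6 genes of EGF receptor ligands and control called, and 2 were lower without 1% CO2 replicate 3.

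Inflammatory and stress genes were mostly lower at 1% CO2 where they were called. Nfkbia, the inhibitor and target of NF-kB, had 152, 148, 114 and 104 at 1% CO2, 457, 474, 429 and 373 with NaOH and 130 to 154 at 0 h. Tnfaip3, another feedback inhibitor, had 3.65 to 6.32, 12.6 to 17.5 and 1.11 to 4.46. The chemokine Cxcl5 had 4.95 to 9.48, 21.1 to 36.6 and 4.00 to 12. Of 12 NF-kB targets 0 were higher and 3 lower, at a median log2FC of -0.77. On adjusted p alone 0 of them were higher and 8 lower, beside 16.3% and 19.2% of all genes. Of 18 NRF2 targets 1 was higher and 2 lower, at a median of -0.03. The autophagy receptor gene Sqstm1 had 1587 to 1803 against 3862 to 4209, and the redox gene Srxn1 285 to 370 against 695 to 823. The cystine transporter Slc7a11 was the higher one, at 10.5 to 22.1 against 5.28 to 10.3.

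Protein-folding genes leaned in opposite directions by compartment, mostly by less than the fold threshold. Hspa1b, an inducible cytosolic HSP70, had 73.1, 96.5, 71.8 and 93.2 at 1% CO2, 269, 286, 254 and 159 with NaOH and 102 to 138 at 0 h. Its paralog Hspa1a is nearly identical, so that tags may be shared. Hspb8, a small heat shock protein, had 616 to 706, 1238 to 1524 and 657 to 694, with a log2FC of -1.05, or -0.97 with library size alone, where it was not called. The 11 heat shock genes tested all had a log2FC below 0 (median -0.17), though 3 of 11 were above 0 with library size alone. Of them 2 were called lower, beside 3.18% of all genes. On adjusted p alone 0 were higher and 5 lower, beside 16.3% and 19.2% of all genes. None of 17 chaperone and degradation genes of the endoplasmic reticulum was called, yet all 17 had a log2FC above 0, from 0.01 to 0.81. Over all genes, 4832 of 9726 were above 0. On adjusted p alone 10 of the 17 were higher and 0 lower, beside 16.3% and 19.2% of all genes. The median was 0.26. The largest were Creld2, with means of 394 and 224, and Sdf2l1, with 228 and 135. Of 19 genes of the integrated stress response none was called, at a median of -0.10.

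The Gadd45 genes, which couple stress to growth arrest, moved in different directions. Gadd45b had 83.1, 79.1, 58.2 and 67.9 at 1% CO2, 583, 466, 481 and 459 with NaOH and 99.2 to 134 at 0 h. Gadd45g had 201 to 210, 788 to 859 and 332 to 371. Gadd45a had 441 to 514, 202 to 228 and 622 to 690, and so was higher at 1% CO2 after a fall with NaOH. In all 3 the treatments did not overlap. Of 15 genes of the p53 and Gadd45 list 3 were higher (Bbc3, Sesn1 and Gadd45a) and 2 lower (Gadd45b and Gadd45g), at a median log2FC of -0.33. Among 10 other BCL2 family genes Bok, a proapoptotic member, was the only call, with 161 to 195 at 1% CO2 and 383 to 449 with NaOH.

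A few cell cycle genes were higher at 1% CO2. Of 22 mitosis genes 3 were higher and 0 lower, at a median log2FC of 0.41, and 5 were higher without NaOH replicate 2, without NaOH replicate 4 or with library size alone. Kif11 lost its call without 1% CO2 replicate 4 or without NaOH replicate 3 (0.95 in both). Mki67 lost its call without NaOH replicate 1 (0.9996). With the study's DESeq2 settings neither was called, at 0.85 for Kif11 and 0.88 for Mki67. Against 0 h, 8 of the 22 had fallen at 1% CO2 and 15 with NaOH. Hmmr, a spindle protein and hyaluronan receptor, had 11.9 to 17.3 at 1% CO2, 3.17 to 7.63 with NaOH and 12.3 to 26.8 at 0 h. Of 24 S phase genes 4 were higher and 0 lower, at a median of 0.46. Among these calls, Mcm4 was lost without NaOH replicate 1 (0.94) and Uhrf1 without NaOH replicate 4 (0.996). On adjusted p alone 11 of the 24 were higher and 2 lower, beside 16.3% and 19.2% of all genes. Against 0 h, 0 had fallen at 1% CO2 and 7 with NaOH. Mcm5, a subunit of the replicative helicase, had 37.9 to 53.3 at 1% CO2, 19.5 to 23.2 with NaOH and 30.1 to 60.6 at 0 h. Growth-related lists leaned the other way. Odc1, the first enzyme of polyamine synthesis, had 38.4, 48.8, 44.6 and 55.3 at 1% CO2 and 175, 166, 158 and 146 with NaOH, with 15.6 to 31.9 at 0 h. It was the only call of 8 polyamine genes. Of 28 ribosome biogenesis genes 0 were higher and 1, Ncl, lower, beside 3.18% of all genes, at a median of -0.30. On adjusted p alone 2 were higher and 16 lower, beside 16.3% and 19.2% of all genes. With library size alone 12 were lower by that measure, at a median of -0.22. Against 0 h, 15 of the 28 had risen at 1% CO2 and 21 with NaOH.

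Transporters of acid and base gave few calls. Slc9a5, a sodium/proton exchanger, had 22.8, 18.6, 17.3 and 20.5 at 1% CO2, 66.1, 79.0, 52.4 and 67.6 with NaOH and 37.9 to 56.0 at 0 h, with 1% CO2 below and NaOH largely above the 0 h range. Its fall at 1% CO2 did not pass without 0 h replicate 4. The anion transporter Slc26a11 was higher, with 37.2 to 58.5 against 17.5 to 24. The other 14 of the 16 genes tested were not called. Of 32 genes of the lysosome and its proton pump none was called, at a median of 0.08. Of 14 clock genes 1, Nr1d1, was lower, with 49.5 to 82.2 at 1% CO2, 124 to 194 with NaOH and 116 to 146 at 0 h, and the median was -0.54. On adjusted p alone 2 clock genes were higher and 8 lower, beside 16.3% and 19.2% of all genes. Of 10 tubulins and of 4 cold-inducible RNA-binding genes none was called, with medians of -0.22 and -0.70.

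**Figure D5:**
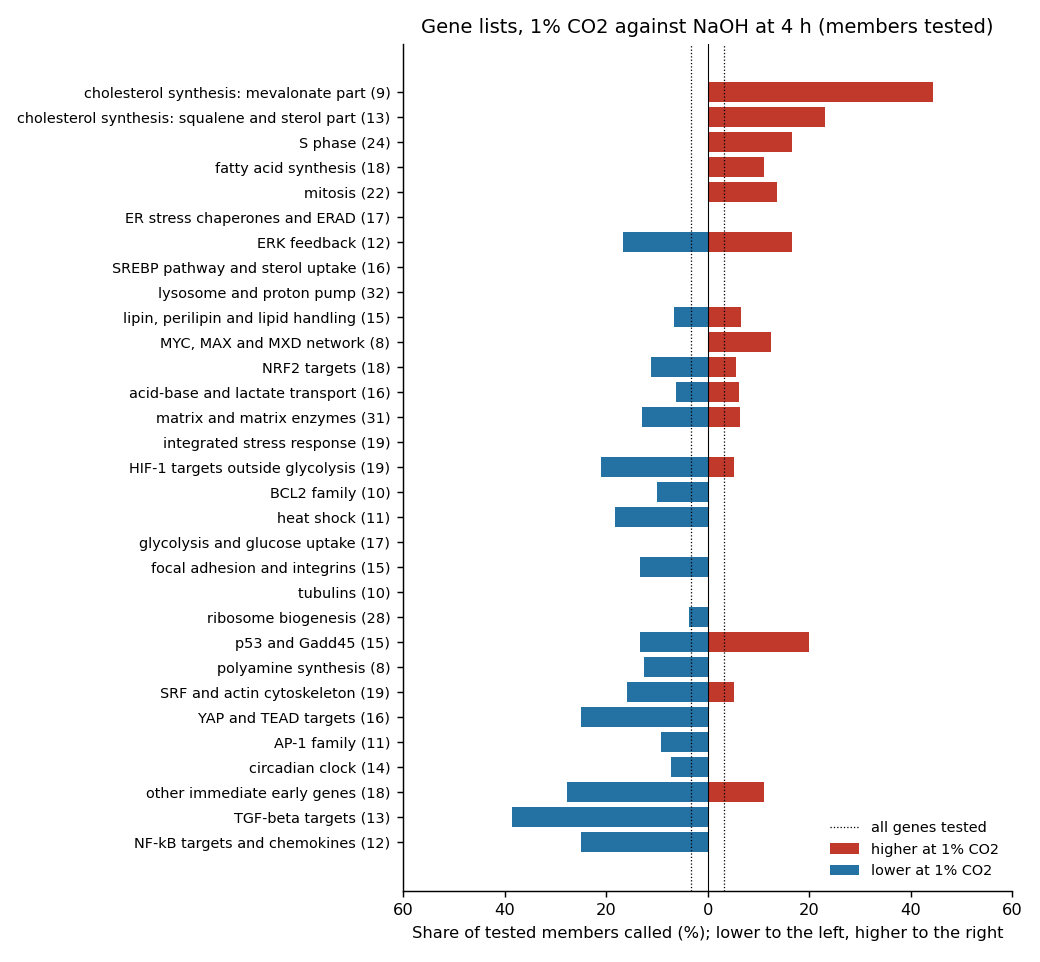
Bars give the percentage of the tested members of each gene list drawn that were called higher at 1% CO2 (right) or lower (left), ordered by the median log2FC of the list, with the number tested in brackets. Lists with few tested members, such as the alpha-arrestins with 2 of 5 higher, are not drawn. Dotted lines mark the 3.3% and 3.18% of all genes called. On the right the longest bars are the cholesterol synthesis lists, with 4 of 9 and 3 of 13. On the left they are the TGF-beta targets, with 5 of 13, and the other immediate early genes, with 5 of 18.

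Promoter motifs were counted over all called genes as a description. CCAAT was in 44.5% of the windows of genes higher at 1% CO2 and in 30.9% of those of lower genes, beside 37.8% over genes tested. The AP-1 letters TGANTCA were in 6.67% and 8.97%, beside 4.9%. The CArG box was in 1.21% and 2.99%, beside 1.33%. The E2F letters GCGGGAA were in 11.5% and 6.31%, beside 8.27%. Of the genes called, 246 higher and 224 lower ones matched a RefSeq window, with 330 and 301 windows.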

How the data were processed

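RNA of NIH3T3 cells was sequenced by the authors as bulk MARS-seq, which counts tags of the 3′ end with molecular identifiers. Reads were trimmed with cutadapt, mapped to mm10 with STAR (2.4.2a according to the submitters' notes) and counted by HTSeq over RefSeq genes. The deposited table holds raw counts for each library. Beside them stands a normalized signal that the authors made with DESeq2, which equals the counts over 1 factor a library (largest deviation 5.09e-11). It served for no test. The sources used here do not state how the 11075 genes were chosen. Paralogs with like 3′ ends may share tags.

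The raw counts went into edgeR 4.0.16 under R 4.3.3. Its TMM factors (0.979 to 1.01 at 1% CO2, 0.912 to 0.971 with NaOH, 1.06 to 1.10 at 0 h) scaled the libraries, and levels are counts over effective library size times its mean. Genes with a mean of at least 5 were tested in 1 robust quasi-likelihood model of all 20 libraries in 5 groups, which leaves out 1349. SE is the log2FC over the square root of F. The steps were tested on simulated data. The study calls its replicates biological, and the labels do not tell whether they were separate cultures. If they were not, p-values measure only a technical spread between these samples. Within a group, pairs of libraries differed by more than sampling noise (chi-square per degree of freedom 2.08 to 6.32 over 18 pairs), so none was counted as a copy. The common dispersion gives a biological coefficient of variation of 0.101. Intervals and counts cover counting error and this spread only.

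Members and lists were chosen with earlier results of these data known, so lists are described by counts and medians with no test. Genes named were the 15 called genes of greatest log2FC each way, from those whose higher group averaged at least 50 and whose libraries did not overlap, skipping Riken, Gm and LOC symbols. Added were, from every list described, the 3 called members of lowest adjusted p and the minority-direction members if 5 or fewer, the cholesterol synthesis genes and the genes of the study's qPCR primers. Not all of these are named, and list members beyond the rule are given with values. Older symbols were matched through RefSeq synonyms. Positions and promoter windows come from RefSeq on GRCm38.p6, the assembly of mm10, and 7524 of the 9726 genes had a window. Alternatives were other scalings, filters, samples, thresholds, DESeq2 1.42.0, a replicate block and leaving out each library. The results of some genes and of 2 lists are not given in the text.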

Additional observations from a re-analysis of the deposited data

Results flagged for a closer look

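In 22 of 369 groups of 4 libraries (123 genes in 3 groups), 1 library lay far from the other 3 for its group's range, where about 1 in 20 groups does so by chance, or 18.45 of them. All values are normalized counts. In the 1% CO2 libraries, Txnip had 141 in replicate 1 against 199 to 209 in the others, Tpm1 had 1247 in replicate 1 against 1082 to 1106, and Dhcr7 had 692 in replicate 2 against 728 to 733. Mki67 had 14.9 in replicate 3 against 18.3 to 19.0 and Hmmr 17.3 in the same library against 11.9 to 12.8. Vegfa had 357 in replicate 4 against 437 to 450, and Mcm4 had 122 against 138 to 141. Mcam had 1.16 in replicate 2 against 0.

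In the NaOH libraries, Cpt2 had 64.1 in replicate 2 against 110 to 118, and Tnfaip3 12.6 against 16.9 to 17.5. Foxp1 had 56.3 in replicate 3 against 76.7 to 80.2. In the 0 h libraries, Synpo had 95.6 in replicate 2 against 114 to 117. In replicate 3, Gadd45b had 99.2 against 130 to 134, Hspa1b 138 against 102 to 107 and Uhrf1 29.0 against 35.9 to 36.2. In replicate 4, Mgp had 79.2 against 82.9 to 83.6, Rasa3 378 against 326 to 332, Smad7 63.2 against 83.7 to 86.9, Slc9a5 56.0 against 37.9 to 39.8 and Insig1 314 against 264 to 269.

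Sftpc, the lung surfactant protein C gene, stood apart most. It had 57.9 in 0 h replicate 3 and 50.7 in NaOH replicate 4, and 0 to 1.15 in the other 10 libraries of these groups. Its log2FC of -6.66 was not called (adjusted p = 0.34, edgeR).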

How the results depend on the processing

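The 630 calls (321 higher, 309 lower) became 366 (158 and 208) at a mean of at least 20, where fewer genes are tested, 126 (33 and 93) when glmTreat tested against a log2FC of 1, and 3455 (1589 and 1866) on adjusted p alone. With the study's DESeq2 settings there were 432 calls, 189 higher and 243 lower, and 221 genes fell at 1% CO2 against 0 h in place of 387. The cause was not tested. All 432, 366 and 126 were among the 630. Those settings left 105 genes that fell with NaOH only in place of 188, and 11 that fell at 1% CO2 only in place of 35. The replicate block gave 624 calls (317 and 307), of which 619 were shared. The replicate numbers did not pair the samples, with correlations of deviations from -0.12 to 0.02 for the 4 same-numbered pairs and -0.03 to 0.07 for the other 12. Only replicate 3 correlated best with its own number. Leaving out each library gave 605 to 670 calls (301 to 347 higher, 300 to 329 lower), 749 to 783 for 1% CO2 against 0 h (378 to 419, 361 to 401) and 1512 to 1553 for NaOH against 0 h (720 to 766, 762 to 817). DESeq2 size factors, library size alone, no filter, the 8 libraries alone and DESeq2 without the prior gave 634, 669, 725, 636 and 597. No called gene named changed sign under these alternatives, and 45 of the 97 called genes lost the call with glmTreat. Of the 630 calls, 264 had a mean under 20, where depth limits precision.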

Other observations

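Other gene families were sorted by symbol after the data had been seen, and are given as counts. Of 41 subunits of NADH dehydrogenase, the first complex of the respiratory chain, 32 had a log2FC above 0 between 1% CO2 and NaOH, with 13 higher (31.7%, beside 16.3% of all genes) and 0 lower on adjusted p alone and a median of 0.14. With library size alone 36 of 41 were above 0. Of 8 FANC and BRCA genes of DNA repair, all were above 0, 2 were called higher and the median was 0.48. Of 22 kinesins 4 were higher and 0 lower. Of 186 Zfp zinc finger genes 14 were higher and 2 lower, beside 3.3% and 3.18% of all genes, and 116 were above 0. On adjusted p alone 28 of them were higher (15.1%) and 25 lower (13.4%), both under the 16.3% and 19.2% of all genes.

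For genes of RNA and protein handling the counts are on adjusted p alone, by which 16.3% of all genes were higher and 19.2% lower. Of 28 SRSF and HNRNP splicing factors 1 was higher and 12 lower (42.9%), at a median of -0.28. Of 46 translation initiation factors 2 were higher and 17 lower (37%), at a median of -0.16, and 2 passed the fold threshold as lower (0 with library size alone). Of 46 proteasome subunits 4 were higher and 13 lower (28.3%), at a median of -0.11. Of 89 cytosolic ribosomal protein genes 2 were higher and 15 lower (16.9%, under the share of all genes), at a median of -0.11, while 70 mitochondrial ones had 16 higher and 9 lower, at a median of 0.02. With library size alone these medians were -0.21, -0.08, -0.04, -0.03 and 0.10. Of 22 Hox genes 2 were called higher and 4 lower.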
